A study of Mus musculus with 96 samples.

Results

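The nuclear-encoded genes of the mitochondrial respiratory chain were followed through 16 mouse tissues and both Scx genotypes. A gene was taken as a member when its symbol was Ndufa, Ndufb, Ndufc, Ndufs or Ndufv followed by a number and nothing else. Symbols that began with Cox4 to Cox8, Uqcr or Atp5 were also taken. Cox8b and Cox7a1 were kept out of the set and served as reference genes. The rule used names only and found 84 of the 41575 symbols listed. By name, 36 belonged to complex I, 9 to complex III, 16 to complex IV and 23 to complex V. A count was present for 79 members, 59 had one in at least 90 of the 96 libraries, and 25 had one in every library. The 5 members at 0 everywhere were Atp5l2-ps, Cox8c, Ndufa7, Ndufs3 and Uqcrc1. Their rows held no count in any library, so nothing is said here of their expression. Of the 84 rows, 7 carry the suffix -ps of pseudogenes.

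The study compared wild-type (WT) and Scx-/- mice at 3 weeks of age, with 3 libraries per genotype in each tissue. Scx encodes scleraxis, a basic helix-loop-helix transcription factor of tendon and ligament cells. Brain (cortex and hippocampus), heart, muscle, bone, cartilage, adipose and vascular tissue, the gut (stomach, intestine, rectum), liver, kidney, bladder, lung and spleen were frozen as whole organs, without treatment and without cell sorting. The labels name the genotype Scx-/- without a Cre driver or floxed allele, and neither strain nor sex nor the sharing of mice between libraries was stated. The p-values therefore measure the spread between these libraries, which may be partly technical.

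The respiratory chain is the set of complexes in the inner mitochondrial membrane that passes electrons from nutrients to oxygen and pumps protons. Complex I takes electrons from NADH, complex III passes them from ubiquinol to cytochrome c, complex IV hands them to oxygen, and complex V, the ATP synthase, makes ATP from the proton gradient. Most subunits are encoded in the nucleus, and a small core is encoded in mitochondrial DNA, whose mRNAs were not analysed here. Heart, muscle, kidney and brown fat are rich in mitochondria. Complex IV is unusual in that several subunits exist in forms made by different genes in different tissues. Some symbols are older than present use: the product of Ndufa4 is now placed with complex IV, that of Atp5sl is a complex I assembly factor, and that of Cox7a2l joins complexes III and IV into supercomplexes.

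Library totals ran from 11244 to 1658192 counts with a median of 251640, and 16 libraries held under 100000. A count was worth 88.9 CPM (counts scaled to a library total of 1000000) in the shallowest library, heart WT replicate 2, and 0.603 CPM in the deepest. Scx itself had 80 counts in 12 of the 48 WT libraries and 9 counts in 1 of the 48 Scx-/- libraries, so the genotype could be read from it in few libraries. The 9 counts were in the library labelled cartilage Scx-/- replicate 1, which in this goes against its label. Without it, as with it, 0 members were called between genotypes in cartilage, and without replicate 1 of all groups 0 were called in the average over tissues. Marker lists placed some libraries apart from their labels. Pancreatic acinar genes (26 of 30 with a count) took 61.3% to 73.0% of the counts in adipose libraries, with a median of 71.8%, where adipocyte genes (7 of 10 with a count) took a median of 0.02%. Vascular libraries carried adipocyte genes (10 of 10) at a median of 1.59% and brown fat genes (8 of 9) at 0.52%, beside smooth muscle genes (6 of 6) at 0.693%, with Ucp1, the uncoupling protein of brown fat, at 939 to 7741 CPM. The paper read brown fat terms in its vascular samples as contamination and left these samples out of its later comparisons. The name vascular tissue is used below as a label only. Skeletal muscle genes (12 of 12) took a median of 29.96% of the counts in muscle, 15.63% in cartilage (13.7% to 17.7%) and 7.15% in bone (2.89% to 10.4%). Cardiomyocyte genes (12 of 12) took a median of 7.98% in heart. In whole organs, fewer cells of a type and less RNA per cell cannot be told apart.

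The members together took the largest share of counts in heart. Heart libraries held 5.96% at the lowest, 7.68% at the median and 8.38% at the highest (n = 6 libraries, both genotypes). Vascular libraries followed at 3.70%, 4.56% and 6.36%, and kidney libraries at 3.88%, 4.15% and 4.46%. Muscle lay at 3.89%, 4.07% and 4.21%, so that vascular, kidney and muscle libraries overlapped with each other. The lowest heart library, WT replicate 2, which was also the shallowest, lay below the highest vascular one. The next lowest heart library, WT replicate 1, held 7.20%. The median in heart was 1.68 times that in vascular and 1.89 times that in muscle libraries.

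Cartilage had a median share of 3.53%, intestine 3.37% and stomach 3.17%. Rectum followed with 2.38%, cortex with 2.05%, bladder with 2.02%, bone with 1.99%, hippocampus with 1.95% and liver with 1.88%. These 6 tissues had overlapping neighbours in the order, whereas the stomach and rectum libraries did not overlap. Spleen had a median of 1.06% and lung of 0.993%. The lowest share was that of adipose libraries, from 0.441% to 0.625% with a median of 0.535%, below every lung library. When the pancreatic acinar genes were taken out of the totals, the adipose median was 1.71%.

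**Figure D1:**
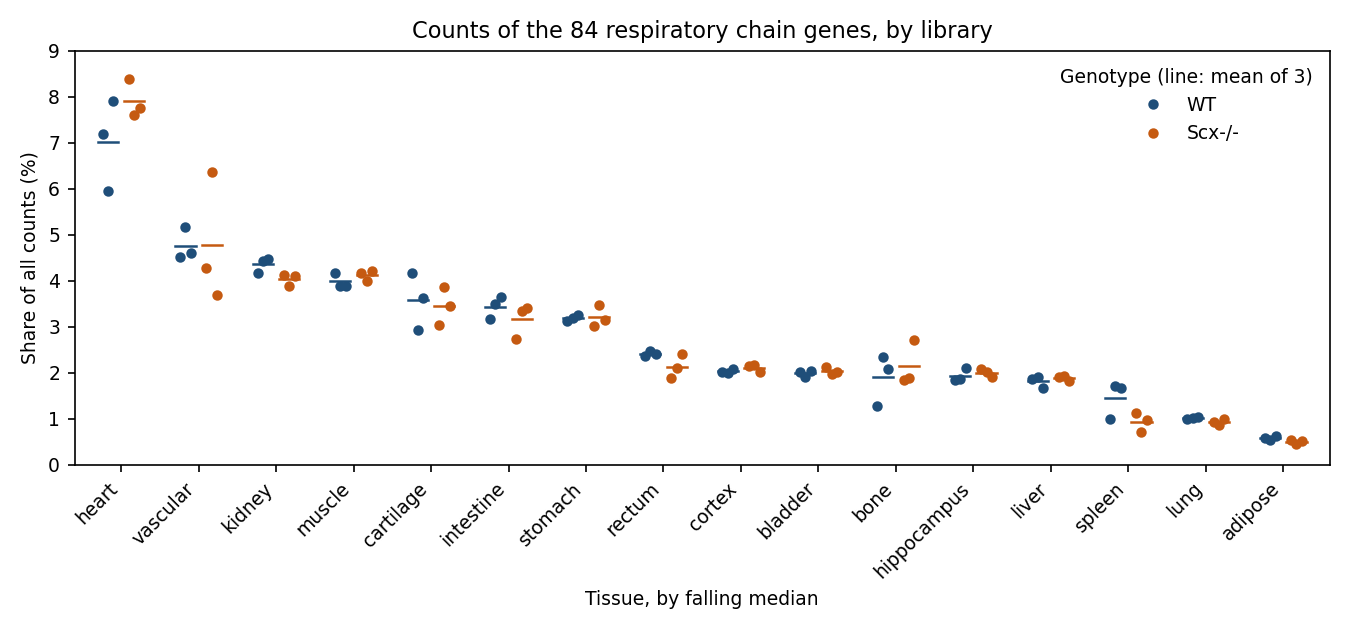
Summed share of the 84 respiratory chain genes, in percent of each library's counts, for every library of the 16 tissues, ordered by the tissue median. Each point is a library, coloured by genotype, and each short line marks the mean of the 3 libraries of a genotype. Heart libraries lie between 5.96% and 8.38%, and adipose libraries between 0.441% and 0.625%.

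The 4 complexes followed the same extremes. Complex I genes took a median of 2.20% of the counts in heart and 0.171% in adipose libraries, complex III genes 0.784% and 0.066%, complex IV genes 1.72% and 0.093%, and complex V genes 2.86% and 0.184%. Mean CPM over all libraries, not divided by transcript length, was 699 for Ndufb9 and 593 for Ndufa4 among complex I genes, and 7.67 for Ndufs5. In complex III, Uqcrq had 638 CPM and Uqcr10 621 CPM. Among complex IV genes Cox4i1 had 1583 CPM and Cox7b 796 CPM. Atp5a1 and Atp5b, the alpha and beta subunits of the catalytic head of ATP synthase, had 2026 and 1503 CPM. Of the protein-coding members, 6 have a near-identical copy elsewhere at the 3′ end (Ndufs3, Ndufb11, Cox7c, Atp5g2, Atp5h and Atp5l), and how the counting treated reads that fit both places was not stated, so their values are uncertain. The pseudogene row Atp5k-ps1 was not found by symbol in the annotation searched, so it may have been missed as a copy of Atp5k. It held 10306 counts over all libraries, beside 5196 for Atp5k.

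Each tissue was then compared with the mean of the other 15 in a fit across all libraries and genes (edgeR's quasi-likelihood test with TMM scaling, 13459 genes, 72 of them members). A gene was called at a Benjamini-Hochberg adjusted p under 0.05. In heart 63 members were higher and 1 was lower, beside 10.3% of all genes higher and 1.05% lower. In muscle 65 were higher and 1 was lower (16.9% and 0.832% of all genes). The median log2 difference of the 72 members was 1.81 in heart, where that of all genes was -0.21, and 1.53 in muscle, where that of all genes was 0.24.

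Kidney had 48 members higher and 0 lower (23.5% and 0.669% of all genes), vascular tissue 36 and 2 (6.2% and 0.825%), and cartilage 33 and 2 (10.9% and 0.572%). Median log2 differences of the members were 0.85, 0.94 and 0.77, and those of all genes 0.51, -0.52 and 0.06. Stomach had 24 higher and 0 lower (16.5% and 0.282%) and liver 10 and 0 (16.5% and 1.87%), shares of the 72 members that in liver lay near the background. The kidney, cartilage, stomach and liver counts moved by over 1.5 times with other scalings: with RLE they were 21, 18, 4 and 4, and with library totals alone kidney had 55, stomach 18 and liver 1 higher and 9 lower. Leaving out replicates took the members higher down to 40 in kidney, 21 in cartilage, 14 in stomach and 6 in liver. The skeletal muscle genes in cartilage libraries and the brown fat genes in vascular libraries are given above, and their part in these differences was not tested.

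Lung and spleen lay at the other end. In lung 57 members were lower and 1 was higher (1.94% and 12.3% of all genes), and in spleen 44 were lower and 1 was higher (2.67% and 18%). The median log2 difference was -1.83 in lung and -1.19 in spleen, and that of all genes 0.09 and 0.06. The catalytic subunit Atp5a1 fell by 2.14 on the log2 scale in lung (SE 0.27, edgeR adjusted p = 1.99e-12). The Rieske iron-sulphur protein of complex III, Uqcrfs1, fell by 2.60 (SE 0.40, edgeR adjusted p = 1.29e-08), and Cox4i1 fell by 1.90 (SE 0.27, edgeR adjusted p = 9.10e-10). In adipose libraries 23 were lower and 0 higher (2.15% and 3.11%), with a median log2 difference of -1.06 beside -1.35 for all genes. That adipose count was 11 with RLE and 61 with library totals alone, and 12 at the lowest when replicates were left out.

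The remaining tissues had fewer calls or calls that turned with the scaling. Hippocampus had 15 lower and 0 higher (3.71% and 22.7%), bladder 13 lower and 1 higher (0.438% and 20.5%), rectum 10 lower and 0 higher (0.565% and 10%), and bone 10 lower and 1 higher (0.691% and 5.54%). With library totals alone hippocampus had 3 higher and 7 lower, bladder 3 and 5, and rectum 4 and 2. With RLE hippocampus had 3 higher and 3 lower, and the members lower were 26 in bladder, 15 in rectum and 6 in bone. Leaving out a replicate of all groups took the members lower down to 6 in hippocampus and 1 in bladder (both without replicate 3), 3 in rectum (without replicate 1 or 3) and 2 in bone (without replicate 2). Cortex had 4 higher and 1 lower (39.4% and 2.84%) and intestine 1 and 1 (6.53% and 2.07%). With library totals alone cortex had 4 and 4, and intestine 12 and 0.

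**Figure D2:**
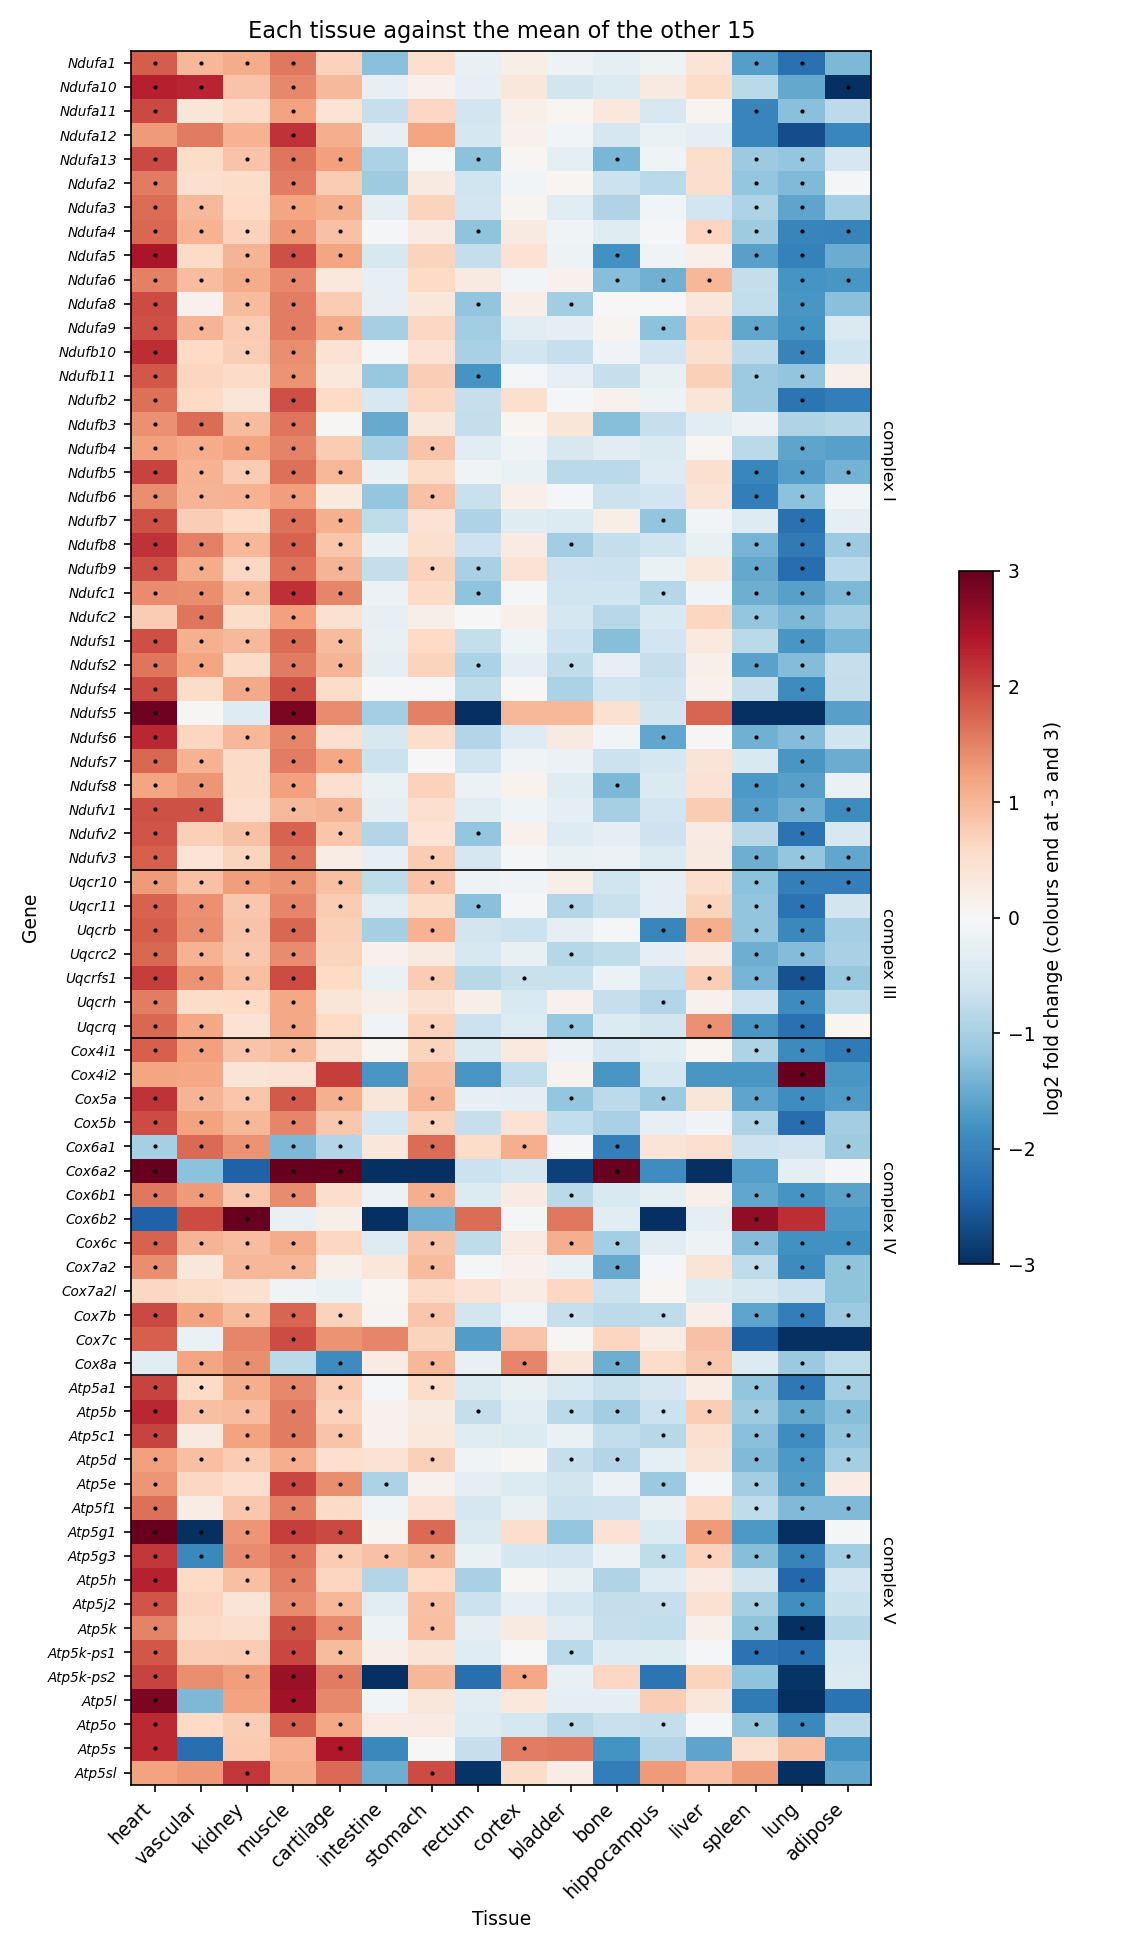
Log2 difference of each tested member between a tissue and the mean of the other 15, from the edgeR fit over all libraries, with members in rows grouped by complex, tissues in columns, colours that end at -3 and 3, and a dot where a member was called. Heart and muscle columns hold 63 and 65 members called higher, and the lung column 57 called lower.

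Calls covered all 4 complexes. In heart 32 of 34 tested complex I genes were higher, 7 of 7 complex III genes, 8 of 14 complex IV genes and 16 of 17 complex V genes. Muscle had 34, 7, 9 and 15 of the same numbers. In lung, 30 complex I, 7 complex III, 8 complex IV and 12 complex V genes were lower. In vascular tissue 3 complex V genes were higher and 2 lower, beside 19 complex I, 6 complex III and 8 complex IV genes higher. Calls were uneven elsewhere too. Stomach had 9 of 14 complex IV and 4 of 34 complex I genes higher, and liver 4 of 7 complex III and 2 of 34 complex I genes. The test of a difference between complexes was not made.

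By size, the leading complex I genes in heart were Ndufs5, higher by 2.91 on the log2 scale (edgeR adjusted p = 0.0184), and Ndufa5, higher by 2.44. The smallest difference in heart among complex I genes was that of Ndufc2, 0.77 (edgeR adjusted p = 0.136). In muscle Ndufs5 was higher by 2.81 and Ndufc1 by 2.19. Of complex III, Uqcrfs1 led in heart (2.07) and in muscle (1.95), ahead of Uqcrb, a small subunit at the ubiquinone site, at 1.81 and 1.72. Among complex V genes Atp5g1, one of the genes for the membrane subunit c, led in heart with 3.39 and Atp5l, subunit g of the membrane part, followed with 2.82. Atp5b was higher in heart by 2.26 (SE 0.17, edgeR adjusted p = 1.84e-28) and Atp5a1 by 2.03 (SE 0.17, edgeR adjusted p = 2.21e-24). Ndufs5, a small accessory subunit of complex I, rested on 254 counts and Atp5l on 568 counts over all libraries. Of the 32 groups, 12 held no count of Ndufs5, 4 none of Atp5l, 6 none of Atp5s and 3 none of Cox6a2, so that their fitted log2 differences depend on the prior count of the fit. In heart the call of Ndufs5 was lost without replicate 1, 2 or 3 of all groups (edgeR adjusted p = 0.179, 0.252 and 0.0785) and that of Atp5l without replicate 1 (0.244) or 2 (0.0868). In muscle the call of Ndufs5 was lost without replicate 2 (edgeR adjusted p = 0.482).

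Heart and muscle were also compared directly. Of the 72 members 0 were called higher and 0 lower by edgeR, where 2.04% of all genes were higher in heart and 2.9% lower. The median log2 difference was 0.29 for members and -0.27 for all genes. Examples were Ndufv1, which holds the NADH-binding site, with 0.87, Cox4i1 with 0.79 (edgeR adjusted p = 0.125) and Atp5g1 with 1.23. The lowest values by complex were those of Ndufa12 with -0.85, Uqcr10 with -0.07, Atp5e with -0.63 and, on few counts, Cox6b2 with -2.06. With library totals alone 14 members were called higher in heart, and with RLE 2, Cox4i1 among them in both (edgeR adjusted p = 5.61e-05 and 0.00292).

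Where a tissue had few calls in a direction, the members were read one by one. Cox6a1, the widely used form of subunit VIa, was the member lower in muscle, where it fell by 1.34 on the log2 scale (edgeR adjusted p = 1.28e-04). It was also the member lower in heart, where it fell by 0.99 (SE 0.297, edgeR adjusted p = 0.0115), a call that was lost when all libraries of replicate 1, 2 or 3 were left out (edgeR adjusted p = 0.0847, 0.0901 and 0.208). In cartilage Cox6a1 fell by 0.87 and Cox8a, the widely used form of subunit VIII, by 1.88. In cortex both rose, Cox6a1 by 1.10 and Cox8a by 1.47, together with Atp5s by 1.53 and Atp5k-ps2 by 1.16, while Uqcrfs1 fell by 0.66. The member higher in bone was Cox6a2, by 4.53, and the member higher in bladder was Cox6c, by 1.08. In intestine Atp5g3 rose by 0.88 and Atp5e fell by 0.94. The calls of Cox6a1 in cartilage, Uqcrfs1 in cortex and Atp5g3 in intestine were each lost without replicate 1, 2 or 3 of all groups (edgeR adjusted p = 0.0582 to 0.625), and that of Atp5e without replicate 2 (0.132) or 3 (0.831) and with either other scaling (0.264 and 0.951). Atp5s in cortex lost its call without replicate 3 (edgeR adjusted p = 0.244), and Atp5k-ps2 without replicate 2 (0.0502).

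Cox6a2, the form of subunit VIa of heart and skeletal muscle, showed the largest tissue difference of the set. Its level in heart was 3117, 1423 and 3644 CPM in WT and 3813, 3129 and 3739 CPM in Scx-/- libraries. In muscle it was 1184, 1392 and 1569 CPM in WT and 2236, 1525 and 1760 CPM in Scx-/- libraries. It was higher by 7.46 on the log2 scale in heart (SE 0.242, edgeR adjusted p = 1.68e-62) and by 7.0 in muscle (SE 0.246). Cox6a1 had 171, 267 and 231 CPM in WT heart, 306, 338 and 162 CPM in Scx-/- heart, and a median of 1636 CPM in vascular tissue, where it was higher by 1.71 (SE 0.21, edgeR adjusted p = 4.08e-12).

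As a share of Cox6a1 and Cox6a2 counts, not divided by length, Cox6a2 took a median of 93.7% in muscle (70.6% to 97.2%) and 93.3% in heart (84.2% to 95.9%). Cartilage had 85.9% (73.7% to 95.9%) and bone 77.3% (every library at 57.0% or above), the tissues with skeletal muscle genes in their counts. The part of those genes in the cartilage and bone shares was not tested. In the other tissues the median was at most 3.99%. A lung library reached 26.2% and an adipose WT library 71.4%, both on few counts.

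The reference genes kept out of the set followed the same tissues. Cox8b, the muscle form of subunit VIII, took a median of 95.8% of Cox8a and Cox8b counts in cartilage, 92.0% in muscle, 87.1% in heart, 78.7% in vascular tissue and 76.7% in bone. Cox7a1, the muscle and brown fat form of subunit VIIa, took 55.1% of its pair in cartilage, 53.0% in bone, 52.7% in muscle, 52.5% in heart and 45.9% in vascular tissue, and 21.9% in stomach. In the vascular libraries Cox8b and Cox7a1 thus took large shares while Cox6a2 did not.

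**Figure D3:**
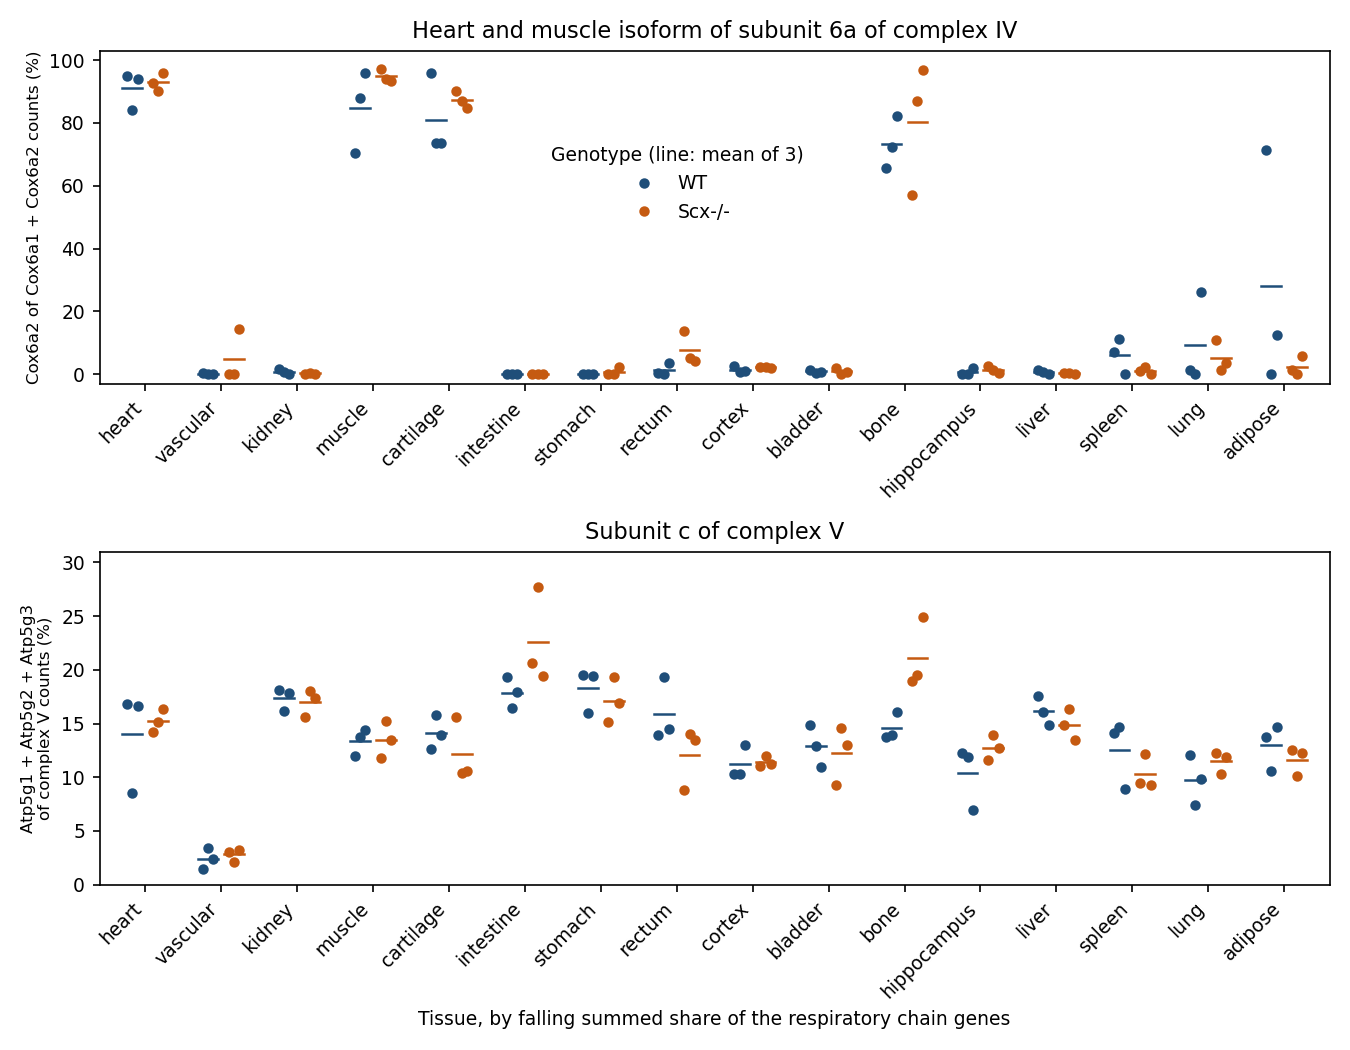
Shares of counts taken by tissue-restricted forms, in percent, for every library of the 16 tissues: Cox6a2 among Cox6a1 and Cox6a2 (upper panel) and the subunit c genes among complex V counts (lower panel). Each point is a library, coloured by genotype, and each line the mean of 3. Cox6a2 medians are 93.7% in muscle and 93.3% in heart, and the subunit c median is 2.71% in vascular tissue.

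Other tissue-restricted forms rested on few counts. Cox4i2, the form of subunit IV that is typical of lung, was the member higher in lung, with 31, 0 and 0 counts in WT and 3, 20 and 0 in Scx-/- libraries. It took a median of 5.77% of Cox4 counts there (0% to 14.7%). Cox6b2, the testis form of subunit VIb, was the member higher in spleen, with 1, 13 and 2 counts in WT and 22, 0 and 0 in Scx-/- libraries. The call of Cox4i2 was lost without replicate 2 (edgeR adjusted p = 0.0762) and that of Cox6b2 in spleen without replicate 1 (1) or 2 (0.395). In kidney Cox6b2 had 82.7, 3.4 and 25.3 CPM in WT and 4.5, 82.9 and 70.1 CPM in Scx-/- libraries, with overlapping genotypes, and was called higher there (edgeR adjusted p = 1.68e-07). Cox7b2 had counts in 2 cortex libraries, 12 and 8.

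In the libraries labelled vascular the 2 members that fell were both genes for subunit c, the ring that turns in the membrane part of ATP synthase. Atp5g1 had 4, 1 and 2 counts in WT and 0, 0 and 0 in Scx-/- vascular libraries, and was called lower than in the other tissues (edgeR adjusted p = 0.00392), a call that was lost without replicate 1 (edgeR adjusted p = 1) or 3 (0.232) of all groups. Atp5g3 had 172, 433 and 289 CPM in WT and 308, 337 and 335 CPM in Scx-/- vascular libraries, and fell by 1.94 (SE 0.28, edgeR adjusted p = 2.71e-09). Atp5g3 in heart had a median of 3788 CPM, and adipose libraries, at 220.5 CPM, and lung libraries, at 314 CPM, were the tissues with medians below the 322 CPM of vascular tissue.

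The subunit c genes took a median of 2.71% of complex V counts in vascular tissue (1.45% to 3.44%). The next lowest tissue median was 10.85% in spleen, the highest was 19.4% in intestine, and the lowest library outside vascular tissue was a hippocampus library at 6.93%. Complex V genes took a median of 26.2% of all member counts in vascular tissue, beside 29.1% in cortex and 40.2% in intestine. Without the subunit c genes it was 25.7% in vascular tissue (24.1% to 27.6%), 26.6% in cortex and 27.1% in bladder, a description only, since these genes were singled out for their low values there. Brown fat genes were present in these libraries, as given above. In brown fat the amount of subunit c is known to set the content of ATP synthase, which is low for the number of mitochondria there. The part of brown fat in these values was not tested.

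The start regions of 4 members named in the tissue and genotype results are shown because the genes of this set are known targets of NRF1, GABP and YY1, factors that bind near the starts of many genes for mitochondrial proteins. RefSeq gave a promoter window, 250 bases before to 50 after the start, for 61 members on GRCm38.p6, and 5 of these had more than 1 start. Cox6a2 had no entry. The sequences are 200 bases before the start, 5′ to 3′ on the gene's strand. Capitals mark GCGCA and GCGC with any base between them, an NRF1 motif, and CCGGAAG, an ETS motif bound by GABP, read on either strand.
Cox6a1 (chr5:115348959-115349158, minus strand): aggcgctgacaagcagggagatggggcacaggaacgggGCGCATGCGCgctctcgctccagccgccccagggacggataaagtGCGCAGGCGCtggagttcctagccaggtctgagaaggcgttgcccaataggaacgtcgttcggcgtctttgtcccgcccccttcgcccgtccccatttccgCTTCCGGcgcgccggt
Atp5g1 (chr11:96075632-96075831, minus strand): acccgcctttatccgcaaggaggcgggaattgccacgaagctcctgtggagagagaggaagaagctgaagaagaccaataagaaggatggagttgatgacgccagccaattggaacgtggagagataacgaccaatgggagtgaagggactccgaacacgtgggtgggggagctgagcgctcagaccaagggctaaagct
Atp5g3 (chr2:73911327-73911526, minus strand): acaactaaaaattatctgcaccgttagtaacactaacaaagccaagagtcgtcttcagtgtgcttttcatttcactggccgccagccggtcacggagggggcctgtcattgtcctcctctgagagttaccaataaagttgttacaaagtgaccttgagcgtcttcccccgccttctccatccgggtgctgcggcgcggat
Ndufa6 (chr15:82354292-82354491, minus strand): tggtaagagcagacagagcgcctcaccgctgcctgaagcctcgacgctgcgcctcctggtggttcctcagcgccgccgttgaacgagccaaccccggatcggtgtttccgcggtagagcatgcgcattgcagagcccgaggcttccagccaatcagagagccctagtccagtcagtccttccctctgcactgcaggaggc

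The Cox6a1 stretch held the NRF1 motif at 2 places and the ETS motif at 1. In the stretches printed for Atp5g1, Atp5g3 and Ndufa6 neither letter pattern was present. The full promoter windows of Atp5g3 and Ndufa6 held the NRF1 motif, not wholly within the printed bases, and that of Atp5g1 did not. Over the 61 members, 15 windows held the NRF1 motif (24.59%, beside 5.534% of 23943 symbols), 14 the ETS motif (22.95% beside 10.39%) and 9 the YY1 motif AAGATGGC (14.75% beside 3.304%). CCAAT was found in 42.62% of the member windows and in 41.5% of all, TATAAA in 9.836% and 15.6%, and the estrogen-related receptor motif TCAAGGTCA in 1 member, Atp5g3 (1.639% beside 0.4552%). All motifs were searched on both strands, and a match is a description of the letters only.

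Across the 32 groups of tissue and genotype, members varied together to different degrees. The mean correlation of a member with the other members, on log2(CPM + 1) group means, had a median of 0.605 over the 79 members with a count, and of 0.611 over the 72 members of the tissue fit. It is given as a description, since the groups share library depth and scaling. It was highest for Atp5j2 (0.694) and Atp5a1 (0.692). The lowest values were those of Cox6b2 (0.00591), Cox7b2 (0.0238) and Cox4i2 (0.0571), followed by Atp5l-ps1 (0.143) and Atp5g2 (0.190). Cox8a (0.199), Atp5s (0.239), Atp5l-ps2 (0.241), Cox6a2 (0.250), Atp5j (0.251) and Cox6a1 (0.261) came next. Complex IV genes with partner forms, pseudogene rows and rows of low count stand among them. Atp5g2 had 55 counts in all libraries together.

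Among genes with a mean of at least 20 CPM, those outside the set whose group means were most like the mean of the members were TrnT (correlation 0.943), Cyc1 (0.923), Immt (0.912), 2010107E04Rik (0.912) and TrnI (0.895), over the same 32 groups. Cyc1 encodes cytochrome c1 of complex III, and Immt encodes the core of the complex that shapes inner membrane cristae. TrnT and TrnI are the symbols of mitochondrial transfer RNAs.

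Other genes of oxidative metabolism were read from fixed lists in the same tissue comparison. Of all genes, 10.3% were higher in heart, 16.9% in muscle and 6.2% in vascular tissue, and 1.94% were lower in lung and 2.67% in spleen. In heart 4 of 4 complex II genes were higher, among them Sdhb, its iron-sulphur subunit, by 2.44 on the log2 scale. Of the genes of the citric acid cycle 13 of 13 were higher in heart, of fatty acid oxidation 12 of 13 (Acadm, the medium-chain dehydrogenase, by 3.05), of carriers, pores, cytochrome c and Atpif1 (here the carrier list) 7 of 8 (Slc25a4, the ADP/ATP carrier, by 4.82 and Cycs, cytochrome c, by 2.54), of assembly factors 15 of 34, and of regulators 6 of 14. The regulators included Perm1 with 6.22, the coactivator Ppargc1a with 3.14 and the fatty acid receptor Ppara with 2.83. None of these lists had a gene called lower in heart.

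Muscle had 12 of 13 citric acid cycle genes higher, 11 of 13 fatty acid oxidation genes higher and 1 lower (Cpt1a, the liver form of carnitine palmitoyltransferase, by 3.03 on the log2 scale), 18 of 34 assembly factors higher, and 6 of 8 genes of the carrier list higher with 2 lower (Atpif1 by 1.46 and the ADP/ATP carrier Slc25a5 by 1.57). In vascular tissue 12 of 13 citric acid cycle genes and 12 of 13 fatty acid oxidation genes were higher, among them Acaa2 by 3.02 and Etfa by 2.95, and 4 of 34 assembly factors (Coa5, Foxred1, Nubpl and Uqcc3), a share not far from that of all genes. The carrier list gave 0 higher and 2 lower in vascular tissue, Slc25a3, the phosphate carrier that feeds ATP synthase, by 1.44 and Atpif1, the inhibitor of ATP synthase, by 1.68. Ppara rose there by 4.19, Ppargc1b by 3.12 and Ppargc1a by 1.99. In lung 11 of 13 citric acid cycle genes and 4 of 4 complex II genes were lower, and in spleen 8 of 13 and 3 of 4.

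The comparison of Scx-/- with WT asked whether loss of Scx changed these genes in any tissue. In a fit per tissue (edgeR's quasi-likelihood test, 3 against 3 libraries), 1 of 1208 tests of members passed an adjusted p under 0.05, that of Ndufa6 in liver, which was higher in Scx-/-. Over all genes the shares called were 0.442% in liver, 0.441% in rectum, 0.195% in kidney and 0.112% in bladder. They were 0.0609% in stomach, 0.0482% in muscle, 0.0391% in heart, 0.0329% in vascular tissue and 0.0222% in cartilage. Adipose had 0.0091%, lung 0.00727%, spleen 0.0072% and hippocampus 0.00708%, and bone, cortex and intestine 0%. DESeq2 also called 1 member test. At an unadjusted p under 0.05 edgeR gave 21 member tests higher and 37 lower in Scx-/-, beside 2.01% and 2% of all tests, and DESeq2 gave 13 and 16. None of the genes on the lists of oxidative metabolism was called in any tissue by edgeR.

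**Figure D4:**
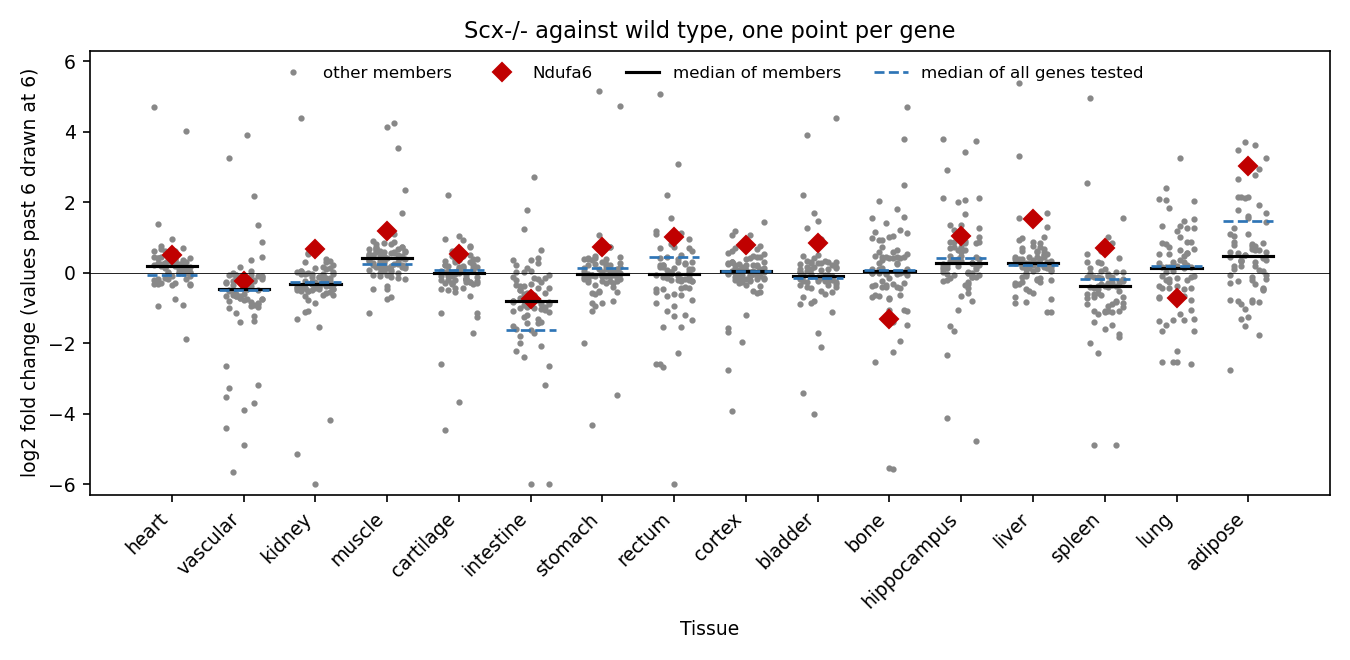
Log2 difference between Scx-/- and WT for each tested member, from the edgeR fit of each tissue, with tissues along the x axis and a grey point per member (values past 6 are drawn at 6). Red diamonds are Ndufa6, which in liver lies at 1.53, the 1 call among 1208 tests, and the lines are the medians of the members and of all genes tested, -0.32 and -0.28 in kidney and -0.47 and -0.51 in vascular tissue.

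Summed levels gave differences between genotypes that depended on the scaling. On the log2 scale, the Scx-/- mean of summed CPM differed from the WT mean by 0.17 in heart, 0.05 in muscle, 0.00 in vascular tissue and -0.64 in spleen, the largest in size of the 16 on library totals. On totals adjusted by TMM the difference was 0.55 in muscle and -0.49 in vascular tissue, beside 0.20 in heart and -0.45 in spleen. Without the shallowest library, heart WT replicate 2, the heart difference was 0.07, and the median log2 difference of the heart members in the edgeR fit turned from 0.19 to -0.15. In muscle that median was 0.40, and 0.19 without the shallow WT replicate 1. The 3 spleen WT libraries held 0.993%, 1.72% and 1.67%, and the Scx-/- libraries 1.13%, 0.706% and 0.962%, so that the groups overlapped. In spleen 15 of 73 members had every Scx-/- library below every WT library, beside 6.24% of all genes, and the median log2 difference was -0.37 over the members and -0.18 over all genes. Without Scx-/- replicate 2 of spleen these were -0.23 and -0.29, and without Scx-/- replicate 1 they were -0.70 and -0.43. The spleen library with 0.706% also held 12.4% pancreatic acinar counts, and without acinar genes in the total it held 0.806%. The part of the acinar counts in the spleen values was not tested.

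In kidney, alone among the 16 tissues, the groups did not overlap in the sum. Kidney was singled out for this, and with 16 tissues looked at a gap of this kind can arise by chance. WT libraries held 4.17% to 4.46% and Scx-/- libraries 3.88% to 4.12%, a log2 difference of -0.11, and an exact permutation test of 3 against 3 libraries cannot go below 0.1. At an unadjusted p under 0.05, 11 of 77 kidney members were lower in Scx-/-, beside 3.32% of all genes, and 13 lay below every WT library, beside 7.33%. At the same unadjusted p 2 members were higher, beside 298 of 15377 genes, and 5 lay above every WT library, beside 3.38% of all genes. The count of 11 was 6 with RLE, 6 with library totals alone, 5 with filterByExpr and 5 in DESeq2. It was 6 without Scx-/- replicate 2 and 7 without WT replicate 2. The median log2 difference in kidney was -0.32 over the members and -0.28 over all genes tested. Among the 11 were Ndufv3, a complex I subunit, with -0.77 on the log2 scale (SE 0.26, edgeR adjusted p = 0.499) and Atp5k, subunit e of ATP synthase, with -1.09 (SE 0.39, edgeR adjusted p = 0.585). For Atp5k the limit set by the row Atp5k-ps1, given above, applies. Kidney tubule genes took 2.62% to 3.61% of WT and 2.05% to 2.27% of Scx-/- counts. Adipocyte genes (0.122% to 0.148% in WT, 0.0596% to 0.104% in Scx-/-) and brown fat genes (6 of 9 with a count, 0.112% to 0.128% in WT, 0.131% to 0.226% in Scx-/-) also did not overlap between kidney genotypes. The brown fat list took a median of 0.072% in liver and 0.0644% in heart too, so it does not mark brown fat alone. Library totals were 672218 to 1015500 in WT and 242429 to 447350 in Scx-/- kidney. The part of these gene lists and totals in the kidney values was not tested.

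Vascular tissue had 9 of 77 members lower at an unadjusted p under 0.05, beside 2.62% of all genes, and 0 called after adjustment. The count of 9 was 1 with RLE, 0 with library totals alone and 1 in DESeq2. It was 2 without WT replicate 1, 5 without WT replicate 2, and 3 without WT replicate 3. Of the Scx-/- libraries, leaving out replicate 2 gave 14 and leaving out replicate 3 gave 3. The median log2 difference was -0.47 over the members and -0.51 over all genes tested there, and with library totals alone -0.06 and -0.14. Examples were Ndufa5 with -1.41 and Ndufb6 with -1.38 on the log2 scale, complex I subunits, and Uqcrh, the hinge protein of complex III, with -1.01 (edgeR adjusted p = 0.672 for each). Brown fat genes took 0.538% to 1.12% of WT and 0.258% to 0.504% of Scx-/- vascular counts, without overlap. Library totals, 154625 to 354795 in WT and 77132 to 152689 in Scx-/-, did not overlap either. The part of the brown fat genes and of the totals in these values was not tested.

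Ndufa6, an accessory subunit of complex I that belongs to the LYR family, had 99, 33 and 29 counts in WT liver and 261, 241 and 232 in Scx-/- liver. These were 206, 135 and 102 CPM in WT and 340, 410 and 400 CPM in Scx-/-, so that every Scx-/- library lay above every WT library. The difference was 1.53 on the log2 scale (SE 0.385, edgeR adjusted p = 0.0197). Liver totals were also higher in Scx-/- (580110 to 768443 counts) than in WT libraries (245271 to 481409 counts). The call held with RLE (1.43, edgeR adjusted p = 0.0422), in DESeq2 (1.43, DESeq2 adjusted p = 0.0133) and without WT replicate 1 (1.90, edgeR adjusted p = 0.00409). It was lost with library totals as the scaling (edgeR adjusted p = 0.0719), with the filterByExpr filter (edgeR adjusted p = 0.140), after thinning all libraries to 57359 counts (edgeR adjusted p = 0.555), and without each of the other 5 liver libraries (edgeR adjusted p = 0.0537 to 0.215).

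At an unadjusted p under 0.05 Ndufa6 was higher in Scx-/- in bladder (0.85 on the log2 scale), cortex (0.78), kidney (0.68), muscle (1.18) and stomach (0.73) as well, with edgeR adjusted p from 0.77 to 0.83. The Scx-/- libraries lay above all WT libraries in 6 tissues, where 0.0267% of all genes with a count did so in at least 6, and below all of them in lung. That contrast over the tissues was looked at after these values were seen. Averaged over the 16 tissues in the joint fit, the difference of Ndufa6 was 0.60 (SE 0.163, edgeR adjusted p = 0.112), with adjusted p from 0.0631 to 1 over the settings tried. In the averaged contrast 0 of 72 members were called, beside 0.141% of all genes. Next were Cox7a2l with 0.54 (edgeR adjusted p = 0.290) and Atp5g1 with -1.19 (edgeR adjusted p = 0.378).

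**Figure D5:**
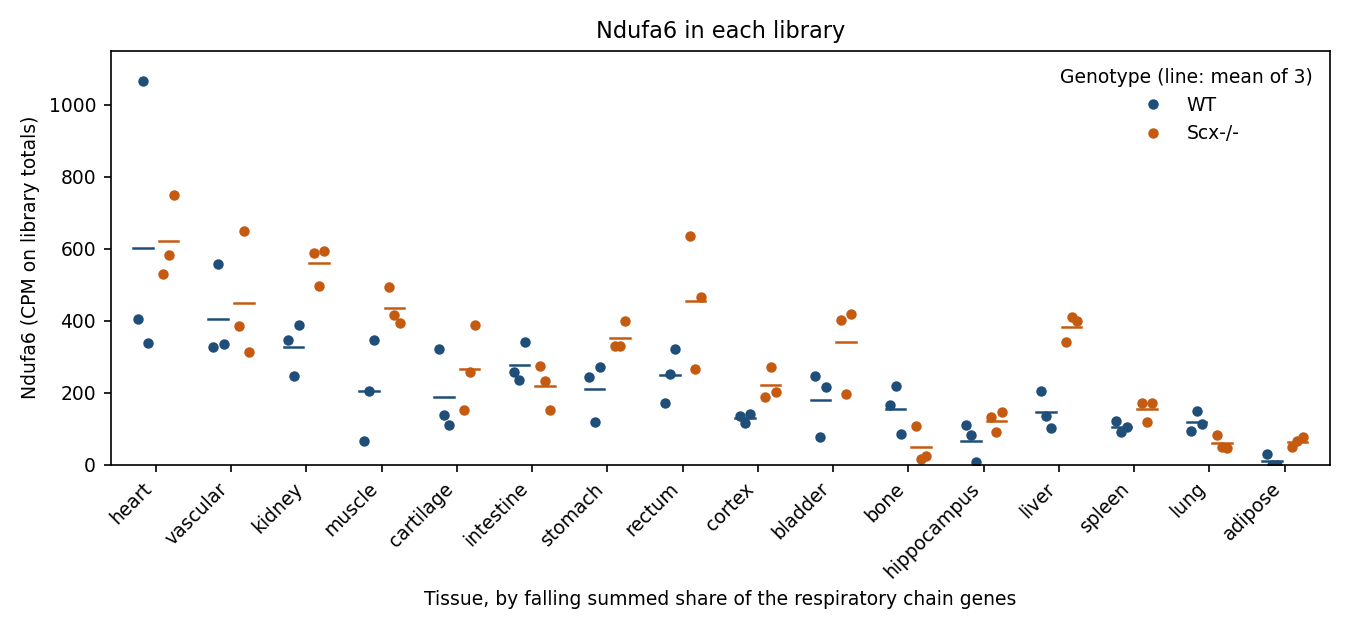
Ndufa6 level in CPM in every library of the 16 tissues, by genotype, with a point per library and a line at each group mean. In liver the 3 WT libraries lie at 102 to 206 CPM and the 3 Scx-/- libraries at 340 to 410 CPM.

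The genotype difference was also tested for change between tissues (edgeR's quasi-likelihood F test of the genotype-by-tissue term). Of the 72 members 0 were called, beside 0.0669% of all genes. The smallest member values were those of Uqcr10 (unadjusted p = 0.0194), Atp5l (unadjusted p = 0.0235, edgeR adjusted p = 0.710) and Ndufa6 (unadjusted p = 0.0258, edgeR adjusted p = 0.718).

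Ndufa6 (chr15:82350140-82354322, minus strand, mm10, protein coding in GENCODE vM21) lies on the chromosome of Scx (chr15:76457452-76459458, plus strand), 5.891 Mb from it. In the averaged contrast, 3.47% of the 547 genes tested on chromosome 15 were higher and 2.93% lower in Scx-/- at an unadjusted p under 0.05, beside 1.97% and 2.03% of the 12463 genes on other chromosomes. Of the 232 genes within 10 Mb of Scx, 6.03% were higher and 3.02% lower. Chromosome 15 held 5 members, and the part of DNA near Scx in the Ndufa6 values was not tested.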

How the data were processed

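Total RNA of whole organs was reverse transcribed and made into pooled, 3′-enriched libraries, sequenced on the Illumina X-Ten. The authors mapped reads to mm10 with Bowtie2 and counted them per gene symbol with HTSeq. Versions, annotation, strand setting and molecular identifiers: not given in the sources used here. The deposited values were counts, used unchanged. Shares and CPM were taken on library totals.

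Genotypes were compared per tissue in edgeR 4.0.16 (glmQLFit and glmQLFTest, robust, TMM, genes at 0 in all 6 libraries left out), with DESeq2 1.42.0 as alternative. Tissues were compared in 1 edgeR fit over 96 libraries and 32 groups after filterByExpr. p-values were Benjamini-Hochberg adjusted over all genes tested in each comparison. Each SE was worked back from the edgeR test, as the size of the log2 difference divided by the square root of F. The scripts were tested on simulated data. Library pairs of a group differed by at least 6.83 in chi-square per degree of freedom, so none counted as a repeat deposit. The members and lists were chosen with earlier results of these data known. By rule, members open to naming were, per complex, the 2 with the highest and the 1 with the lowest signed difference in heart, muscle and heart against muscle, those of highest and lowest mean CPM, the complex IV and subunit c forms, those of lowest correlation, and those called between genotypes. Not all of them are printed, and the heart differences of Atp5b and Atp5a1 were added outside the rule. Further members, such as Ndufv3 and Atp5k in kidney, Ndufa5, Ndufb6 and Uqcrh in vascular tissue and the single calls per tissue, were chosen after their values were seen. Depth, 11244 to 1658192 counts, limits low members, and counting error is not the whole error.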

Additional observations from a re-analysis of the deposited data

How the results depend on the processing

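Depth limits the members of low count, above all in the 16 libraries under 100000 counts. The cause of each change below was not tested. Heart, vascular, lung and spleen kept their main direction under RLE scaling (62, 36 higher and 42, 40 lower), and with library totals alone (62, 48 higher and 46, 41 lower).

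With RLE the members called lower numbered 26 for bladder, 15 for rectum, 11 for adipose, 6 for bone, 3 for hippocampus, 2 for muscle and 0 for cortex and intestine. Those called higher numbered 21 for kidney, 18 for cartilage, 7 for cortex, 4 each for liver and stomach, 3 each for hippocampus and intestine, and 2 for heart against muscle. With library totals alone, those lower numbered 61 for adipose, 9 for liver, 7 for hippocampus, 6 for bone, 5 for bladder, 4 for cortex, 2 each for muscle and rectum and 0 for intestine. Those higher numbered 14 for heart against muscle, 12 for intestine, 4 for rectum, 3 each for bladder and hippocampus, and 1 for liver. Without a filter on low counts, 5 were lower in bladder, 1 in cartilage, 0 in cortex and 0 in heart. Without adipose and vascular libraries, 3 were lower in cortex and 0 in intestine, and without acinar genes 0 and 3.

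The paper left its vascular samples out of its genotype comparison, so its thresholds were carried over to them here. Between genotypes, the thresholds of the study (unadjusted p under 0.05 and a fold change over 2), applied to the edgeR fit, called 5 members in vascular tissue, 3 each in bone, hippocampus, kidney and intestine, 2 each in spleen, muscle and adipose, 1 each in bladder, cortex, stomach, rectum and liver, and 0 in cartilage, heart and lung. These were 28 of 1208 member tests (2.32%, beside 3.71% of all tests), in vascular tissue 6.49% of members beside 4.19% of all genes and in intestine 4.17% beside 4.25%. With DESeq2 they were 5 higher and 9 lower, with 1 in vascular tissue, where RLE also gave 1 and library totals or leaving out Scx-/- replicate 3 gave 0. The 1 liver member called at an adjusted p under 0.05 was lost, leaving 0, with library totals, with filterByExpr and after thinning. On TMM-adjusted totals the log2 difference of summed CPM was 0.55 for muscle, 0.46 for adipose, 0.36 for liver, 0.32 for hippocampus, 0.13 for lung, 0.10 for cortex, -0.032 for rectum, -0.049 for bladder, -0.25 for kidney, -0.49 for vascular tissue and -0.81 for intestine. On RLE-adjusted totals it was 0.032 in lung and 0.26 in muscle. The median of log2(CPM + 1) differed by 0.57 in adipose, -0.14 in bladder, -0.54 in intestine, -0.028 in kidney and 0.16 in rectum, and without the 20 most abundant other genes the sum differed by -0.040 in lung and -0.094 in stomach.

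Leaving out replicates gave ranges of members lower of 12 to 23 in adipose, 1 to 14 in bladder, 2 to 11 in bone, 1 to 2 in cartilage, 0 to 2 in cortex, 0 to 1 in heart, 6 to 16 in hippocampus, 1 to 2 in intestine, 1 to 2 in muscle, 3 to 10 in rectum and 1 to 2 in vascular tissue. Those of members higher were 21 to 33 in cartilage, 0 to 1 in intestine, 6 to 9 in liver, 0 to 1 in lung, 0 to 1 in spleen and 14 to 24 in stomach. Genotype calls ranged from 0 to 1 in cortex, 0 to 1 in liver and 0 to 1 in the average over tissues. Atp5s in muscle changed from 1.03 to -0.18 without replicate 2 (highest 1.70), and Uqcr10 in heart against muscle from -0.07 to 0.24 with RLE, 0.53 with library totals, 0.10 without heart WT replicate 2 and 0.13 without replicate 2 (lowest -0.17 without replicate 1).

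Same-numbered WT and Scx-/- libraries did not deviate together: over the 16 tissues the correlation of a pair's deviations from the group means ran from -0.127 to 0.0411, and in 0 tissues was every pair over 0.1. They share only a number. With the replicate number as a block the liver count stayed at 1, the other tissues at 0, heart had 63 members higher and lung 58 lower, and Ndufa6 in liver differed by 1.60 (edgeR adjusted p = 0.0339). The block moved no count of members called at an adjusted p under 0.05 by over 1.5 times. Counts over all genes did move, from 19 to 32 in the average over tissues, from 5 to 1 in heart, from 7 to 3 in muscle, from 63 to 39 in rectum, from 3 to 0 in cartilage, from 1 to 0 in adipose, from 0 to 2 in cortex and from 1 to 2 in hippocampus. At the thresholds of the study it took liver from 1 to 4, cartilage from 0 to 1, spleen from 2 to 0, bladder and cortex from 1 to 0, bone, hippocampus and kidney from 3 to 2, intestine from 3 to 4 and vascular tissue from 5 to 7.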
